A study of Mus musculus with 8 samples.

Results

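Messenger RNA levels of 30 genes of endoplasmic reticulum (ER) protein folding and of the unfolded protein response were examined in 4 mouse pancreatic ductal adenocarcinoma (PDAC) cell lines. The 30 genes were taken as a named list from a table of 49315 gene identifiers, and all 30 were found by symbol. They comprise 11 chaperones and co-chaperones, 4 protein disulfide isomerases, 7 genes of ER-associated degradation (ERAD), 4 sensor and transcription factor genes and 4 genes of the protein translocation channel. The lines 6694c2, 2838c3, 6499c4 and 6419c5 were each sequenced once as the wild type (WT) and once with C1galt1c1 knocked out (KO), which gave 4 libraries per genotype. The C1galt1c1 gene (Cosmc) makes an ER chaperone of the core 1 O-glycan synthase, and its loss leaves cells with the truncated Tn O-glycan. All cultures were grown in high-glucose DMEM with serum. The tumour alleles of the lines, and whether a KO culture is 1 clone or a pool, are not given in the sources used here. Levels are TPM, a share of the library corrected for gene length, so that levels of different genes can be compared.

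Secreted and membrane proteins enter the ER through the Sec61 channel and fold there with the help of Hspa5 (BiP), Hsp90b1, the lectin chaperones Calr and Canx, and the disulfide isomerases. When unfolded protein builds up, the sensors Ern1 (IRE1 alpha), Atf6 and Eif2ak3 (PERK) are released from Hspa5. Ern1 then splices Xbp1 mRNA, cleaved Atf6 enters the nucleus, and both routes induce chaperone and ERAD genes, while Eif2ak3 slows translation and raises Atf4. Secretory epithelia such as pancreatic cells carry a heavy load of such proteins. A classical target of Atf6 and Xbp1 is the ER stress response element (ERSE), a CCAAT box bound by NF-Y and a CCACG box held at a fixed spacing in promoters of ER chaperone genes.

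ERSE was searched for in promoters of the RefSeq table, taken from 250 bases before to 50 bases after the start of the gene, on both strands. The motif was CCAAT, any 9 bases, then CCACG. The table held promoters of 25 of the 30 genes, all but Atf6, Derl1, Manf, Hyou1 and Sec61a1. Of these 25 genes 9 had an ERSE (36%), against 37 of the 27025 genes of the table (0.137%), the 9 included. ERSE is known from promoters of ER chaperone genes, which this list was chosen to hold. The higher share in the list is therefore not an independent finding. The 9 were the chaperones Hspa5, Calr, Hsp90b1, Canx, Creld2 and Dnajc3, the isomerase Pdia6 and the ERAD genes Syvn1 and Derl3. Promoters of Hspa5 and of the 4 others with the highest mean TPM among the 9 are shown, because they let the shared element be read. Capitals mark ERSE, and an element on the opposite strand appears as its reverse complement. The sequences are from RefSeq (GRCm38.p6) and each matched GRCm39 exactly at 1 place on its chromosome. These were chr2:34661852-34662151 on the plus strand for Hspa5, chr8:85573511-85573810 on the minus strand for Calr, chr10:86541259-86541558 on the minus strand for Hsp90b1, chr11:50216451-50216750 on the minus strand for Canx and chr12:17316340-17316639 on the plus strand for Pdia6.
Hspa5: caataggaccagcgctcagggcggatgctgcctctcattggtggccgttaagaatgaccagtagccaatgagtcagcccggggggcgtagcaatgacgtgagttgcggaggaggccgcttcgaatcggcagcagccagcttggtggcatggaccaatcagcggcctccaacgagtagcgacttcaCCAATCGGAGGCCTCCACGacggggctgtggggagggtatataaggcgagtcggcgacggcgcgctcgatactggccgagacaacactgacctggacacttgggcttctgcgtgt
Calr: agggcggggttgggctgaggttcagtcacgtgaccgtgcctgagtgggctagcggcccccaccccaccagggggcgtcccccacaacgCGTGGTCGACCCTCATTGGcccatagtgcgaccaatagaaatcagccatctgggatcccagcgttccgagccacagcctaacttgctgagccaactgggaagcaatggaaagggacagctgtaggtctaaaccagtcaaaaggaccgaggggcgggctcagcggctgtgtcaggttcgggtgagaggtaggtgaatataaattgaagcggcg
Hsp90b1: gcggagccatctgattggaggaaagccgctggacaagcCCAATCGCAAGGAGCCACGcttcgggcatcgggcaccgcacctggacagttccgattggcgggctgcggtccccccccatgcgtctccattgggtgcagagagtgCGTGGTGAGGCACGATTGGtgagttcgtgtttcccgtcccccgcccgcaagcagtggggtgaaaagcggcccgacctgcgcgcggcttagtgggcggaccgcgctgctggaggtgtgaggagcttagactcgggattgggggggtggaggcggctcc
Canx: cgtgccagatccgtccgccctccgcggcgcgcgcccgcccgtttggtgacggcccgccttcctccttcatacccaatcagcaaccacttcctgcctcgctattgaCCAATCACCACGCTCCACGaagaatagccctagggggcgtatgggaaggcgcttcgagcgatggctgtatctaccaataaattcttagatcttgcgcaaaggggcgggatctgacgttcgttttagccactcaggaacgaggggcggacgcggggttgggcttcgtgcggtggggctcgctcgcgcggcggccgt
Pdia6: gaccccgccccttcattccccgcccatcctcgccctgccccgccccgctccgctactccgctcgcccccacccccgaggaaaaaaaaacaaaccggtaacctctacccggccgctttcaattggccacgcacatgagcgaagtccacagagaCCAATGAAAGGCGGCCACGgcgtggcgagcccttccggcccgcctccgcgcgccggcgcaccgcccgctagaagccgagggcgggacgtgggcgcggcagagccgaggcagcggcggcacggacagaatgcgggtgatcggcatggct

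Positions are counted from the RefSeq start, which lies downstream of the start of the GENCODE gene for all 5 genes, by 120 bases for Hspa5 and 138 for Hsp90b1. The ERSE of Hspa5 began 65 bases before the RefSeq start, that of Pdia6 98 bases before it, that of Canx 145 and that of Calr 162. Hsp90b1 carried a pair of elements, at 212 and 107 bases. Counted from the GENCODE start, the ERSE of Hspa5 and the nearer one of Hsp90b1 begin inside the annotated gene, 55 and 31 bases from that start, and the others lie before it. The other 4 genes with ERSE held the following elements, written in the direction of the motif with CCAAT and CCACG in capitals and the spacer in lower case.
Creld2: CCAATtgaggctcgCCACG
Derl3: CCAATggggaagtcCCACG
Dnajc3: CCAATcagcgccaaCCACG
Syvn1: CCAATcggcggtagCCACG

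A shorter relative is ERSE-II (ATTGG, any base, then CCACG). It was present in 2 of the 25 genes, Herpud1 and Dnajb11, against 12 of 27025 genes (0.0444%), these 2 included.
Dnajb11: ATTGGcCCACG
Herpud1: ATTGGgCCACG
The Xbp1-binding motif UPRE (TGACGTGG) was found in the promoters of none of the 25 genes (0 of 25), against 193 genes of the table (0.714%). A match is a run of letters and was not tested for binding, and elements outside these windows were not searched.

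C1galt1c1 (chromosome X, 37719034 to 37724025 in GRCm39) was lower in the KO library of every line, at 29.5%, 38.0%, 35.0% and 42.4% of the WT level in 6694c2, 2838c3, 6499c4 and 6419c5. Of 9 ductal epithelial markers, Krt8, Krt18 and Krt19 were between 2528 and 8257 TPM in all libraries, Epcam between 1.21 and 44.9 TPM and Cldn4 between 0.146 and 8.88 TPM. Krt7 was at 35.3 and 21.6 TPM in WT and KO of 6694c2, below the 374 to 1397 TPM of the other 6 libraries. In 6694c2, 8 of the 9 ductal markers were lower in KO relative to all genes, with a median of -0.36, and their summed level was 20175 TPM in WT and 13455 TPM in KO. The summed level of WT and KO was 15290 and 15134 TPM in 2838c3, 19103 and 24719 TPM in 6499c4 and 14454 and 15039 TPM in 6419c5. Of the markers of other cells, Ptprc was at most 0.151 TPM, Pecam1 at most 0.143 TPM and Dcn at most 0.837 TPM, and Cpa1, Prss1 and Ptf1a were listed at 0. Summed over the lists, fibroblast markers (7 genes) ranged from 3.56 to 7.52 TPM in WT and from 4.29 to 5.53 TPM in KO. Most of it was Thy1, at 2.59 to 5.06 TPM over the 8 libraries. Immune markers (7 genes) ranged from 6.33 to 14.8 TPM and from 8.43 to 28.9 TPM, nearly all of it Cd68. Acinar markers (7 genes) ranged from 4.93 to 44.4 TPM in WT and from 4.59 to 23.8 TPM in KO, nearly all of it Cela1. Endothelial markers (6 genes) ranged from 0.272 to 4.34 TPM and from 0.245 to 2.81 TPM. Among them Vwf was at 3.175 TPM in WT and 1.66 TPM in KO of 6419c5, and at most 0.0682 TPM in the other lines. The part of the markers of other cells in the results was not tested. Identifiers without a name held 12.5% of the TPM in the KO library of 6694c2 and 9.69% in that of 6419c5, against 0.713% to 1.33% in the other 6 libraries. TPM add up to the same total in each library, so such RNA lowers the share of all other genes. Differences of KO minus WT are therefore given as log2(TPM + 1) relative to the median difference of the 12900 genes tested, which was -0.23 in 6694c2, -0.08 in 2838c3, -0.11 in 6499c4 and -0.16 in 6419c5. Differences fitted over the lines had their median of -0.15 taken off in the same way. Each p-value of the limma fit of KO against WT belongs to the fitted difference before that median is taken off. TPM keep no read depth, and 1 library per genotype in a line leaves a difference within a line without a replicate check.

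The 30 genes together took up 0.718%, 0.767%, 0.567% and 0.644% of the WT libraries of 6694c2, 2838c3, 6499c4 and 6419c5. In the KO libraries they took up 1.14%, 0.580%, 0.495% and 0.702%. The KO library of 6694c2 thus held the highest summed level of the 8 libraries and the KO library of 6499c4 the lowest. In bulk RNA a change per cell and a change in the makeup of the culture cannot be told apart. P4hb had the highest mean level at 1325 TPM, followed by Calr at 900 TPM, Hspa5 at 790 TPM, Pdia3 at 530 TPM and Hsp90b1 at 461 TPM. Among the sensors Xbp1 stood at 142 TPM, Atf6 at 37.3 TPM, Ern1 at 17.1 TPM and Eif2ak3 at 15.8 TPM. Derl3 was the least abundant, at 1.67 TPM. Of the 30 genes 20 had their highest level in the KO library of 6694c2, where 7.88% of all genes tested had theirs. The KO library of 6499c4 held the lowest level of 15 of the 30, against 17.6% of all genes.

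**Figure D1:**
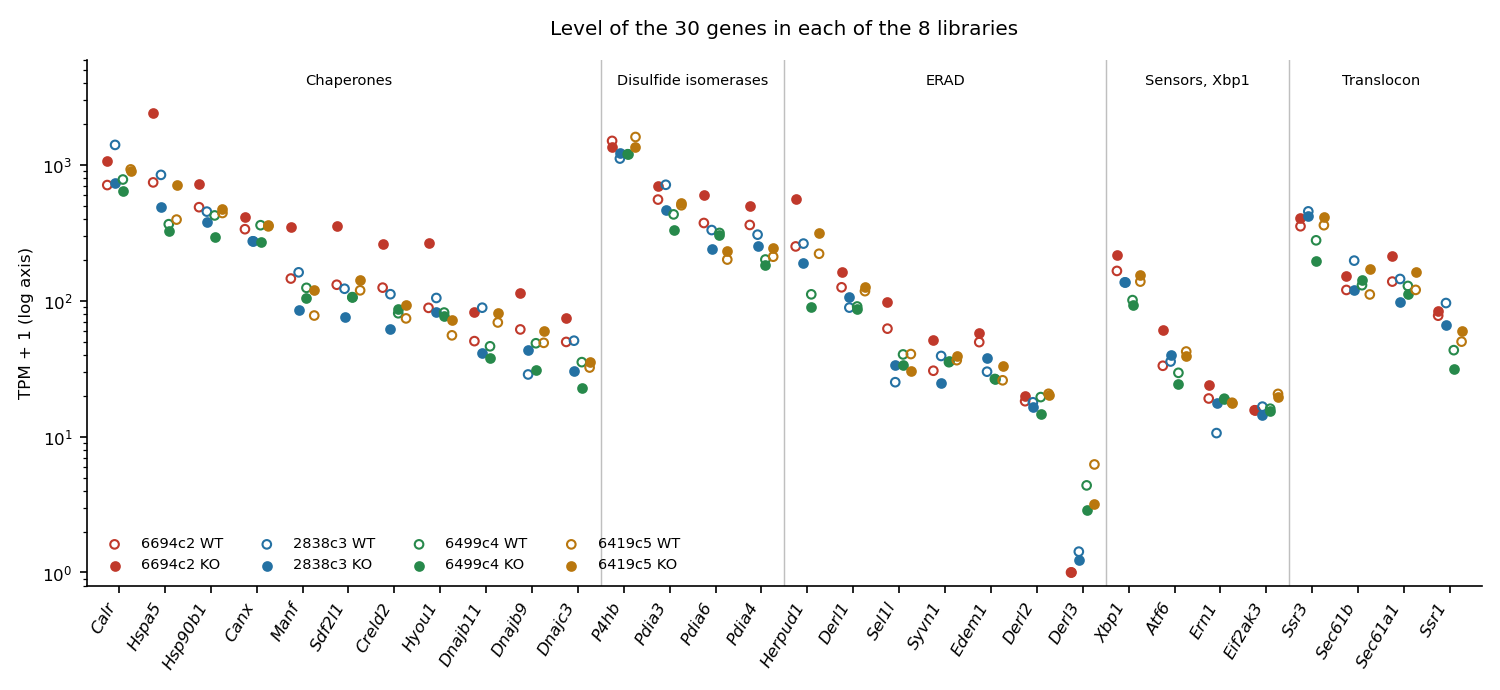
TPM + 1 on a log axis (y) of the 30 genes (x), grouped by role and ordered by mean level, in the 8 libraries; colours are cell lines, open circles WT and filled circles KO, 1 library each. The filled red points, KO of 6694c2, are the highest for 20 of the 30 genes, and Derl3 lies far below the others.

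The difference between KO and WT was unlike in the 4 lines. In 6694c2, 29 of the 30 genes were higher in KO relative to all genes, and Derl3 was listed at 0 in both libraries. In 6419c5, 27 of 30 were higher, with Derl3, Sel1l and P4hb lower. In 2838c3, 21 of 30 were lower and 9 higher, and in 6499c4, 19 were lower and 11 higher. The median difference of the 30 genes was 0.81 in 6694c2, -0.22 in 2838c3, -0.11 in 6499c4 and 0.33 in 6419c5, where the median of all genes is 0 by construction. On TPM as deposited, without taking off the median, 28, 8, 5 and 22 of the 30 genes were higher in KO in 6694c2, 2838c3, 6499c4 and 6419c5, against 28.7%, 43.8%, 36.3% and 31.4% of all genes. Of the 30 genes 20 were higher in both 6694c2 and 6419c5 and lower in 2838c3, a pattern seen in 18.3% of all genes tested. The lines with the higher levels are those whose KO libraries held 12.5% and 9.69% unnamed identifiers. Their part in the differences was not tested.

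**Figure D2:**
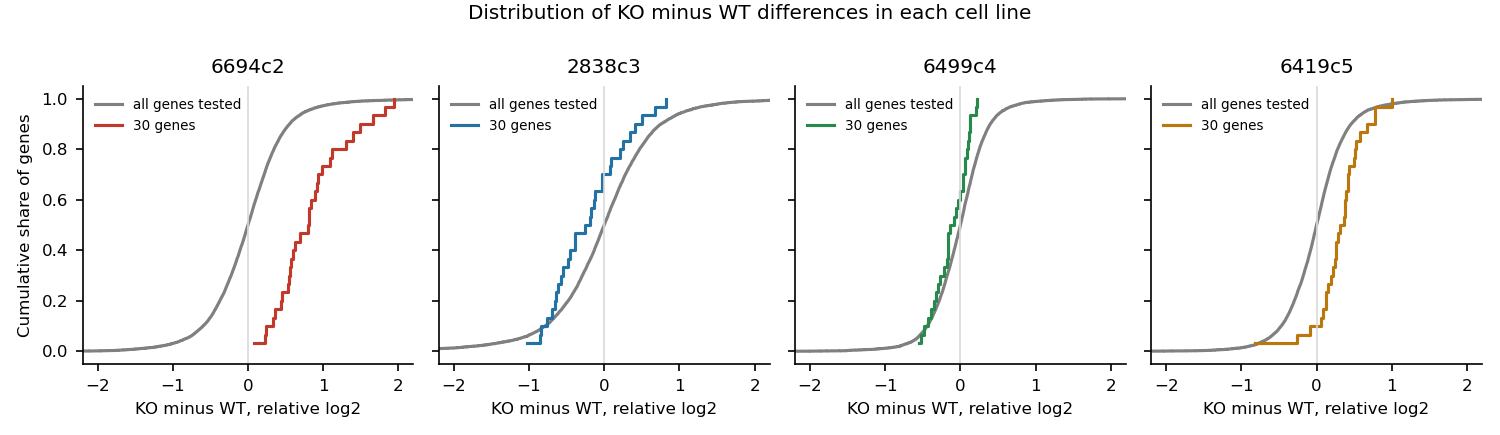
Cumulative share of genes (y) against KO minus WT on the relative log2(TPM + 1) scale (x) in each cell line, for all 12900 genes tested (grey) and the 30 genes (colour). The coloured curve lies to the right of the grey one in 6694c2 and 6419c5, with medians of 0.81 and 0.33, and to its left over most of the range in 2838c3.

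In 6694c2, 19 of the 30 genes were at least 1.5-fold higher in KO, against 8.88% of all genes, and 8 were at least 2-fold higher, against 2.79%. None of the 30 was 1.5-fold lower (0 of 30, against 10.4% of all genes). The 8 were Hspa5, Hyou1, Sdf2l1, Manf, Herpud1, Creld2, Dnajb9 and Atf6, which are 6 of the 11 chaperones and co-chaperones, 1 ERAD gene and 1 sensor. In 6419c5, 4 of the 30 were at least 1.5-fold higher (Hspa5, Manf, Sec61b and Herpud1; 6.4% of all genes) and 1 was 1.5-fold lower (Derl3; 6.47%). In 2838c3, 8 were at least 1.5-fold lower (Calr, Creld2, Dnajb11, Dnajc3, Hspa5, Manf, Sdf2l1 and Sec61b; 16% of all genes) and 2 at least 1.5-fold higher (Dnajb9 and Ern1; 15.1%). In 6499c4 no gene of the list passed 1.5-fold in either direction (0 of 30), against 4.46% of all genes higher and 5.09% lower. By role, the median difference in 6694c2 was 1.12 for chaperones, 0.63 for disulfide isomerases, 0.60 for ERAD genes, 0.59 for sensors and 0.51 for translocon genes. In 2838c3 the same medians were -0.66, -0.29, -0.03, 0.17 and -0.47. In 6419c5 they were 0.42, 0.29, 0.25, 0.12 and 0.50, with the translocon genes above the chaperones, and in 6499c4 they were -0.17, 0.01, -0.16, 0.03 and -0.22. Of the 25 genes with a promoter searched, the 9 with ERSE had a median difference of 0.81 in 6694c2 and -0.57 in 2838c3. The 16 genes without it, which include Herpud1 and Dnajb11 with ERSE-II, had 0.57 and -0.08. Most genes with ERSE were chaperones, so these groups also differed in role, and the part of role was not tested. Among chaperones in 6694c2, those with ERSE ran from 0.54 for Canx to 1.94 for Hspa5. The searched chaperones without it, Sdf2l1, Dnajb9 and Dnajb11, stood at 1.66, 1.12 and 0.93. Atf6, Derl1, Manf, Hyou1 and Sec61a1, whose promoters were not searched, are in neither group. In 6694c2 their differences ran from 0.60 for Derl1 to 1.82 for Hyou1. In 6499c4 the medians were -0.18 with ERSE and -0.10 without it, and in 6419c5 the genes with ERSE had the lower median, 0.25 against 0.37.

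**Figure D3:**
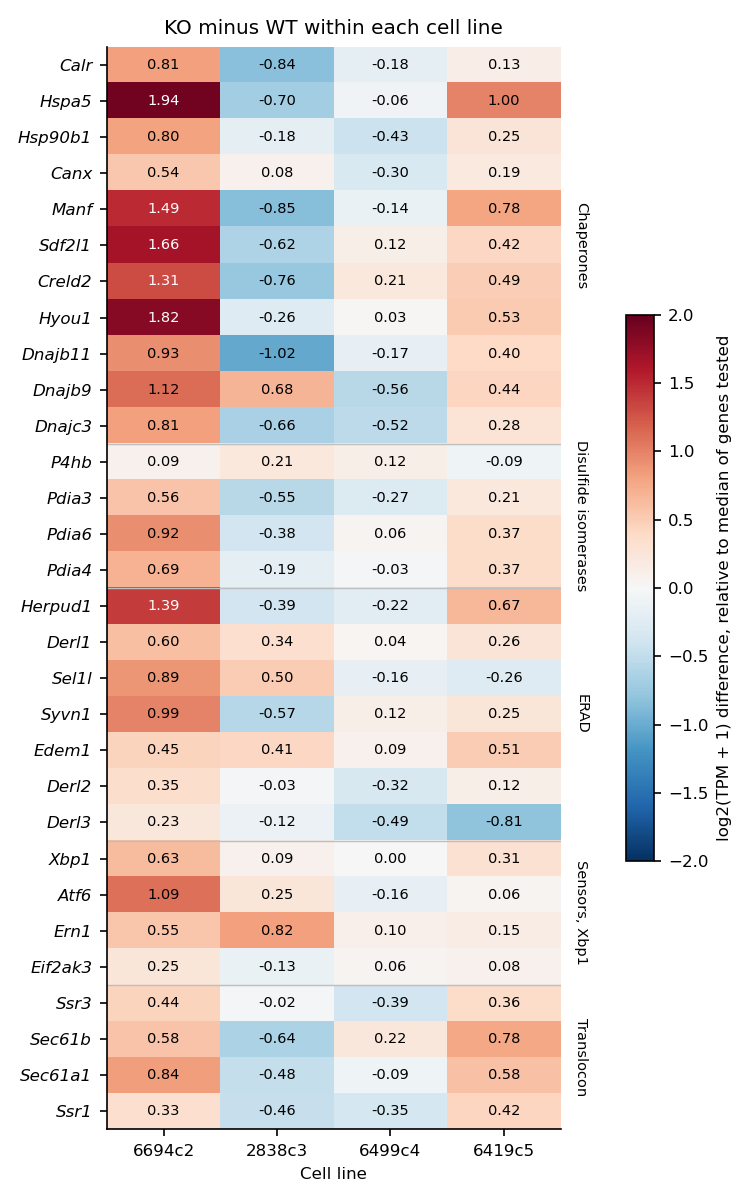
KO minus WT in each cell line (columns) for the 30 genes (rows, by role), as log2(TPM + 1) relative to the median of the genes tested, with the value in each cell; red is higher and blue lower in KO. The 6694c2 column is red throughout, up to 1.94 for Hspa5 (Derl3, at 0 in both libraries, shows only the median taken off), and the 2838c3 column is mostly blue, down to -1.02 for Dnajb11.

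Hspa5, the Hsp70 of the ER lumen and the binding partner of the sensors, had WT levels of 745, 847, 366 and 396 TPM in 6694c2, 2838c3, 6499c4 and 6419c5 and KO levels of 2436, 493, 326 and 712 TPM. The KO library of 6694c2 stood far above the other 7, and the groups overlapped. Its relative difference was 1.94 in 6694c2, rank 69 from the top among 12900 genes, 1.00 in 6419c5, -0.06 in 6499c4 and -0.70 in 2838c3. The gene (ENSMUSG00000026864, chromosome 2, 34661982 to 34668880 on the plus strand of GRCm39) shares 2457 of its 5554 exonic bases with Rabepk on the opposite strand, which reached 29.2 TPM at most. Hyou1, a large Hsp70-type chaperone that exchanges nucleotides on Hspa5, had WT levels of 87.9, 104, 81.1 and 54.8 TPM and KO levels of 267, 82.2, 77.0 and 71.1 TPM in the same order of lines. Its 3 other KO libraries lay within the range of WT, and its difference of 1.82 in 6694c2 was rank 82 from the top.

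Sdf2l1, which works with the J protein Dnajb11 and Hspa5, had WT levels of 131, 122, 106 and 119 TPM and KO levels of 354, 74.8, 107 and 143 TPM. WT libraries were close to each other, and KO libraries spread from below to far above them. Manf, a small ER protein that is released under ER stress, had WT levels of 145, 161, 124 and 77.0 TPM and KO levels of 349, 84.2, 104 and 120 TPM. Creld2, another stress-induced ER protein, had WT levels of 124, 111, 80.1 and 73.3 TPM and KO levels of 264, 61.5, 86.4 and 93.0 TPM. These genes were also lower in KO in 2838c3, with relative differences of -0.62 for Sdf2l1, -0.85 for Manf and -0.76 for Creld2. Manf overlaps Rbm15b on the same strand over 32.6% of its exonic bases, and Rbm15b reached 34.3 TPM at most.

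The J proteins bring clients to Hspa5, and their differences were unlike each other. Dnajb9 had WT levels of 60.7, 27.7, 47.8 and 48.1 TPM and KO levels of 113, 42.4, 29.8 and 58.7 TPM, higher in KO in all lines but 6499c4. Dnajb11 had WT levels of 49.6, 88.2, 45.3 and 68.4 TPM and KO levels of 81.4, 40.6, 37.3 and 80.9 TPM, and its difference of -1.02 in 2838c3 was the lowest of the list in any line. Dnajc3, an inhibitor of Eif2ak3 as well as a co-chaperone, was at 0.81 in 6694c2, -0.66 in 2838c3, -0.52 in 6499c4 and 0.28 in 6419c5. The lectin chaperone Calr had WT levels of 712, 1409, 783 and 929 TPM and KO levels of 1069, 742, 642 and 911 TPM. Its highest level of all was in the WT library of 2838c3, the line in which its difference was lowest, at -0.84. Canx, its membrane-bound partner, varied least among the chaperones, between 272 and 417 TPM over the 8 libraries. The fitted difference of Dnajb9 over the lines was 0.42 (SE 0.26, limma adjusted p = 0.708). Hsp90b1, the Hsp90 of the ER, ranged from 293 TPM in the KO library of 6499c4 to 727 TPM in that of 6694c2.

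**Figure D4:**
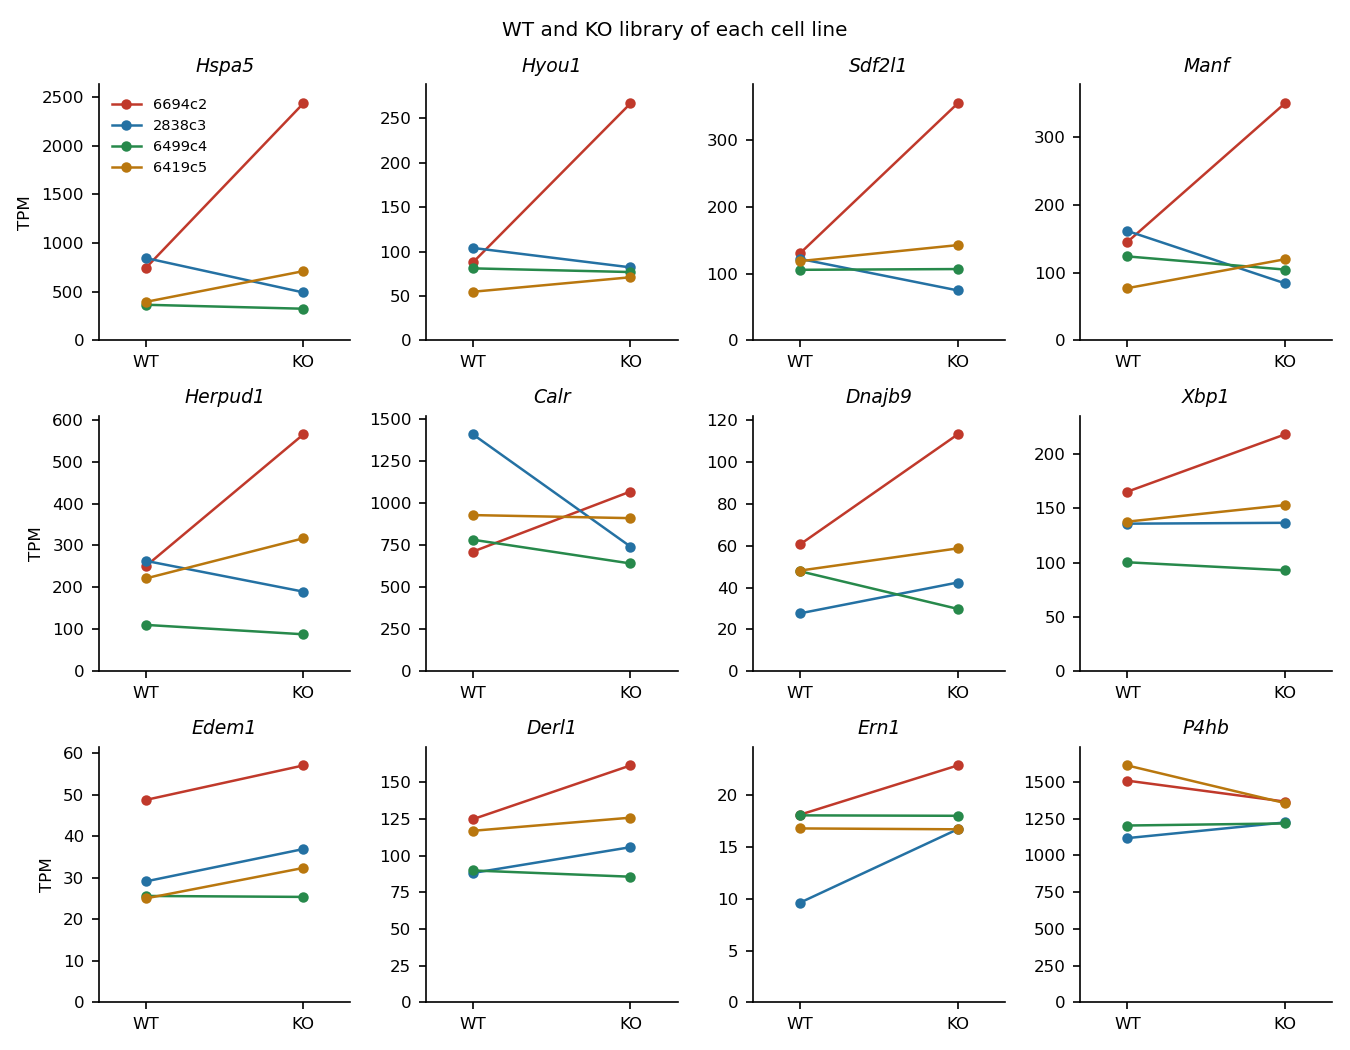
TPM (y, from 0) in the WT and KO library (x) of each cell line (colour, 1 library per point) for 12 of the 30 genes; lines join the libraries of a cell line. Hspa5 went from 745 to 2436 TPM in 6694c2 and from 847 to 493 TPM in 2838c3, while P4hb stayed between 1117 and 1611 TPM.

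Disulfide isomerases form and reshuffle the disulfide bonds of folding proteins. P4hb, also a subunit of collagen prolyl hydroxylase, had WT levels of 1508, 1117, 1203 and 1611 TPM and KO levels of 1366, 1224, 1217 and 1356 TPM. Its relative differences lay between -0.09 and 0.21, the narrowest spread between lines in this role. Pdia6 had WT levels of 374, 332, 316 and 201 TPM and KO levels of 606, 240, 306 and 234 TPM. Pdia3, which acts on glycoproteins bound to Calr and Canx, had WT levels of 557, 716, 433 and 505 TPM and KO levels of 703, 463, 334 and 526 TPM. For Pdia4 the relative difference was 0.69 in 6694c2, 0.37 in 6419c5, -0.03 in 6499c4 and -0.19 in 2838c3. The fitted difference was 0.25 for Pdia6 (SE 0.20, limma adjusted p = 0.873) and -0.0041 for Pdia3 (SE 0.19, limma adjusted p = 0.788). The values tested, before the median is taken off, were 0.10 for Pdia6 and -0.15 for Pdia3. Pdia3, Pdia4 and Pdia6 had their largest positive difference in 6694c2 and their largest negative one in 2838c3.

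ERAD genes mark, extract and ubiquitinate proteins that fail to fold. Herpud1, a stress-induced scaffold of the ERAD ubiquitin ligase, had WT levels of 251, 263, 111 and 222 TPM and KO levels of 565, 190, 88.5 and 317 TPM. The lines stood in the same order as for Hspa5, with relative differences of 1.39, -0.39, -0.22 and 0.67. Fitted over the lines, Herpud1 stood at 0.37 (SE 0.28, limma adjusted p = 0.788). Edem1, which targets mannose-trimmed glycoproteins to ERAD, had WT levels of 48.7, 29.1, 25.6 and 25.0 TPM and KO levels of 57.0, 36.9, 25.4 and 32.3 TPM. Derl1, a rhomboid-like channel protein, had WT levels of 125, 88.3, 90.0 and 117 TPM and KO levels of 162, 106, 85.7 and 126 TPM. Edem1 and Derl1 were higher in KO in all 4 lines relative to all genes, but on TPM as deposited both were slightly lower in 6499c4. Together with Ern1 they were the 3 of 30 genes higher in all 4 lines (6.43% of all genes), while 0 of 30 were lower in all 4 (6.79%), and 0 of 30 were higher in all 4 on TPM as deposited (1.88%). With no filter on low genes, which shifts the median they are set against, they were no longer higher in 6499c4. Derl3 missed the count of genes lower in all 4 lines only through 6694c2. Both libraries of that line were at 0, and the median taken off put it at 0.23. In 2838c3, 6499c4 and 6419c5 Derl3 stood at -0.12, -0.49 and -0.81.

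The ubiquitin ligase Syvn1 (Hrd1) and its partner Sel1l were highest in the KO library of 6694c2, at 50.9 and 97.7 TPM, and differed elsewhere. Sel1l was higher in KO in 2838c3 (24.2 and 32.8 TPM) and lower in 6419c5 (39.6 and 29.5 TPM). Syvn1 was lower in KO in 2838c3 (38.3 and 24.0 TPM) and had a difference of 0.25 in 6419c5. Derl2 stayed between 13.6 and 19.7 TPM. Derl3, listed at 0 in both libraries of 6694c2, had WT levels of 0.423, 3.38 and 5.24 TPM and KO levels of 0.234, 1.90 and 2.19 TPM in 2838c3, 6499c4 and 6419c5. It was the 1 gene of the list that was higher in KO in no line on TPM as deposited, at levels close to the filter.

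The sensors detect unfolded protein and start the response. Atf6, which becomes a transcription factor after cleavage in the Golgi, had WT levels of 32.3, 34.8, 28.5 and 41.4 TPM and KO levels of 59.7, 39.2, 23.6 and 38.6 TPM. Ern1, the kinase and RNase that splices Xbp1, had WT levels of 18.1, 9.63, 18.04 and 16.8 TPM and KO levels of 22.9, 16.7, 17.998 and 16.7 TPM. The WT library of 2838c3 stood below the other 7 libraries, which gave a difference of 0.82 in that line. Ern1 was higher in KO in all 4 lines relative to all genes, but on TPM as deposited only in 6694c2 and 2838c3, and with no filter not in all 4. Eif2ak3, the kinase that phosphorylates eIF2 alpha, stayed between 13.4 and 19.7 TPM, with differences from -0.13 to 0.25. Xbp1 had WT levels of 165, 136, 100 and 138 TPM and KO levels of 218, 137, 93.0 and 153 TPM. Gene-level TPM count spliced and unspliced Xbp1 mRNA alike, so Ern1 activity was not measured. The fitted difference over the lines was 0.26 for Xbp1 (SE 0.14, limma adjusted p = 0.788), 0.32 for Atf6 (SE 0.21, limma adjusted p = 0.785) and 0.07 for Eif2ak3 (SE 0.14, limma adjusted p = 0.849). The values tested, before the median is taken off, were 0.11 for Xbp1, 0.17 for Atf6 and -0.08 for Eif2ak3. Relative to all genes, all 4 sensor estimates were above 0. Of the values tested, that of Eif2ak3 was below 0, and no sensor passed (0 of 4). Xbp1 shares 22.0% of its exonic bases with Ccdc117 on the opposite strand, which reached 23.1 TPM at most.

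All 4 genes of the translocation channel were higher in KO in 6694c2 and in 6419c5 and lower in 2838c3, relative to all genes. Sec61a1, the channel subunit, had WT levels of 138, 144, 128 and 120 TPM and KO levels of 212, 97.1, 112 and 161 TPM. Sec61b had WT levels of 119, 197, 130 and 111 TPM and KO levels of 152, 120, 141 and 171 TPM, and its 0.78 in 6419c5 was above its 0.58 in 6694c2. The translocon-associated subunit Ssr3 had WT levels of 354, 456, 278 and 360 TPM and KO levels of 410, 424, 197 and 415 TPM. Ssr1, of the same complex, had WT levels of 76.9, 95.5, 42.4 and 49.1 TPM and KO levels of 82.6, 65.3, 30.6 and 59.4 TPM. The fitted difference was 0.24 for Sec61b (SE 0.23, limma adjusted p = 0.897), 0.10 for Ssr3 (SE 0.17, limma adjusted p = 0.934) and -0.01 for Ssr1 (SE 0.18, limma adjusted p = 0.768). The values tested, before the median is taken off, were 0.09 for Sec61b, -0.05 for Ssr3 and -0.16 for Ssr1. Both Ssr genes were lowest in 6499c4, in WT as well as in KO.

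Tested over the 4 lines with the line as a block, no gene of the list passed the test of KO against WT. With limma on log2(TPM + 1), 0 of the 30 genes, and 0 of 12900 genes (0%), had a p under 0.05 after Benjamini-Hochberg adjustment. At an unadjusted p under 0.05 there were also 0 of 30, where all genes had 0.86% higher and 7.95% lower. The WT and KO libraries of each of the 30 genes overlapped: 0 of 30 had all KO libraries above all WT libraries (0.147% of all genes) and 0 of 30 all below (1.34%). Of the 30 relative estimates 25 were above 0 and 5 below, with a median of 0.23. The widest intervals belonged to Hspa5, Manf, Sdf2l1 and Hyou1, the 4 genes with the largest differences in 6694c2. Hspa5 stood at 0.55 (SE 0.39, 95% interval -0.38 to 1.47, limma adjusted p = 0.724), from 589 ± 243 TPM in WT to 992 ± 976 TPM in KO (SD, n = 4 libraries). Hyou1 stood at 0.54 (SE 0.31, interval -0.20 to 1.27, limma adjusted p = 0.666). The values tested, before the median is taken off, were 0.40 for Hspa5 and 0.39 for Hyou1. Leaving out a line moved several of the relative estimates by over 1.5 times. Without 6694c2 Hspa5 stood at 0.09 and Hyou1 at 0.11, Herpud1 at 0.03, Pdia6 at 0.03, Atf6 at 0.06 and Dnajb9 at 0.20. Without 2838c3 Hspa5 stood at 0.97, Pdia6 at 0.46, Herpud1 at 0.63 and Sec61b at 0.54, and without 6419c5 Sec61b stood at 0.05. Calr stood at -0.02 (SE 0.25, interval -0.61 to 0.58, limma adjusted p = 0.827). P4hb stood at 0.09 (SE 0.15, interval -0.27 to 0.45, limma adjusted p = 0.899). The values tested, before the median is taken off, were -0.16 for Calr and -0.06 for P4hb. The intervals of Calr and P4hb thus reached into both directions.

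**Figure D5:**
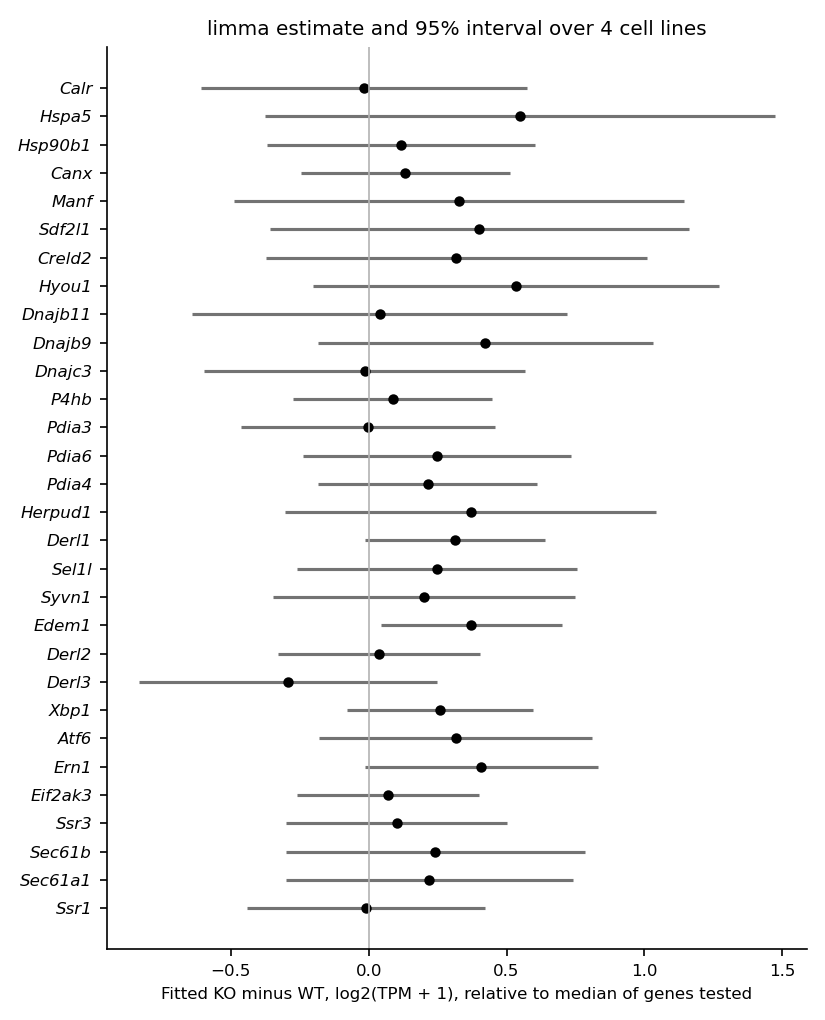
Fitted KO minus WT over the 4 cell lines (x, log2(TPM + 1), relative to the median of the genes tested) for the 30 genes (y); points are limma estimates and bars 95% intervals. Of the 30 points 25 lie above 0, and the bars are widest for Hspa5, Manf and Sdf2l1.

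The genes of smallest unadjusted p in the list were Derl3, Edem1 and Ern1. Derl3 stood at -0.29 (SE 0.23, limma adjusted p = 0.576), Edem1 at 0.37 (SE 0.14, limma adjusted p = 0.602) and Ern1 at 0.41 (SE 0.18, limma adjusted p = 0.622). The tests set the values before the median is taken off against 0, which were -0.44 for Derl3, 0.22 for Edem1 and 0.26 for Ern1. The relative interval of Edem1, 0.04 to 0.70, lay above 0. With median-ratio scaling Edem1, and with quantile normalization Edem1 and Ern1, had an unadjusted p under 0.05, but their adjusted p remained above the threshold. Under these scalings 2.26% and 2.5% of all genes were higher at that unadjusted p. Without 6499c4 Dnajb9, higher in KO, was the 1 gene of the list with an unadjusted p under 0.05 (of 29 tested). Of all genes 0.806% were then higher and 5.17% lower. Without 6694c2 the median of the relative estimates was 0.02 in place of 0.23, and without both 6694c2 and 6419c5 it was -0.20.

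Few of these genes passed a test for differences between the lines with genotype taken out. The WT and KO libraries of a line served as its 2 values. KO differences that were unlike between lines therefore widened the error of this test. A gene that did not pass was not shown to be alike in the lines. WT levels of Hspa5, which did not pass, ran from 366 to 847 TPM. The F test of limma on the line terms passed for 2 of the 30 genes, Edem1 (adjusted p = 0.0405) and Derl3 (adjusted p = 0.0113), against 16.9% of all genes. Edem1 was highest in both libraries of 6694c2, and Derl3 was at 0 in 6694c2 and highest in the WT library of 6419c5. Without 2838c3 the count was 10 of 30, where 29.1% of all genes passed. Without 6499c4 or 6419c5 it was 0 of 29, since Derl3 then missed the filter, where 5.87% and 5.83% of all genes passed.

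Over the 30 genes Pearson's r of the KO minus WT differences was 0.57 for 6694c2 with 6419c5, -0.38 for 6694c2 with 2838c3 and -0.40 for 2838c3 with 6419c5. Over all genes tested the same pairs had 0.37, -0.13 and -0.20. Genes are not independent replicates, and each difference carries the scatter of its own pair of libraries. The pairs with 6499c4 had 0.15 with 6694c2, -0.07 with 2838c3 and 0.28 with 6419c5 in the list, and -0.05, 0.22 and 0.06 over all genes. The sign was thus the same in the list and over all genes except for 6499c4 with 6694c2 and with 2838c3.

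Other genes of the pathway were taken from 5 further lists. Of 18 other folding genes 17 were tested, and 0 passed the adjusted or the unadjusted threshold, with 15 higher in KO in 6694c2 and 11 lower in 2838c3. Their genes of smallest p were Fkbp11, an ER peptidyl-prolyl isomerase, and Dnajc10, a J protein with reductase activity. Fkbp11 went from 54.5 to 134 TPM in 6694c2 and from 72.5 to 184 TPM in 6419c5, and Dnajc10 from 101 to 64.4 TPM in 2838c3. Of 19 other ERAD genes 0 passed either threshold, and their median difference was 0.39 in 6694c2 and -0.06 in 2838c3. Aup1 was higher in all 4 lines relative to all genes, with differences from 0.18 to 0.57, and Faf2 was lower in 3. Of 19 other genes of translocation and signal cleavage, likewise 0 passed either threshold, with Sec61g, the small channel subunit, at 0.40 and Spcs1, of signal peptidase, at -0.14.

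The KDEL receptors return escaped chaperones from the Golgi to the ER. Kdelr3 had WT levels of 59.0, 38.5, 12.5 and 26.6 TPM and KO levels of 85.1, 96.2, 34.4 and 55.3 TPM, higher in KO in every line, but its limma adjusted p was 0.497. Kdelr2 had a relative difference of 0.65 in 6694c2, 0.56 in 6419c5, 0.02 in 6499c4 and -0.16 in 2838c3, the order seen for Hspa5. Of 21 other signalling genes 20 were tested and 0 passed the adjusted threshold, while 3 had an unadjusted p under 0.05. The lower one was Mbtps1, the Golgi protease that cleaves Atf6, and the 2 higher ones were Ddit3 and Trib3, stress genes downstream of Atf4. Ddit3 had WT levels of 31.7, 14.7, 22.7 and 25.8 TPM and KO levels of 154, 43.2, 26.9 and 98.5 TPM. Trib3 had WT levels of 68.1, 62.9, 16.6 and 10.96 TPM and KO levels of 340, 69.9, 22.7 and 98.5 TPM. Both were higher in KO in all 4 lines, 2838c3 included, where Hspa5 was lower, and the limma adjusted p was 0.542 for Ddit3 and 0.556 for Trib3. Atf4, named here after its values were seen, went from 722 to 1702 TPM in 6694c2 and from 220 to 804 TPM in 6419c5, but from 752 to 529 TPM in 2838c3 and from 304 to 286 TPM in 6499c4.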

How the data were processed

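Poly(A) RNA of 8 cultures was sequenced, and the authors deposited 1 table of TPM per gene. Per the submitters' processing notes, cutadapt 5.1, STAR 2.7.11b, featureCounts 2.1.1, DESeq2 2.11.40.8 and the build mm39 were used; the gene lengths behind TPM and the use of strand in counting are not given in the sources used here. TPM keep no read depth, so no counting error is given. Identifiers were named with GENCODE vM39 (45505 of 49315). The test was run on the genes that reached 1 TPM in 4 or more libraries (12900, all 30 listed genes among them) with limma 3.58.1 in R 4.3.3 on log2(TPM + 1), with genotype and the cell line as a block, a mean-variance trend and Benjamini-Hochberg adjustment over all genes. The line pairs the samples, since both genotypes come from the same line (correlation of deviations 0.42 to 0.79). The 4 lines serve as the replicates, with 1 library per genotype in each. The p-values of KO against WT are therefore set against how much the KO minus WT difference varied between lines. On simulated data for this comparison (12740 genes), the share recovered was 25% for a simulated log2 change of 1 and 84% for 2, with 3 false calls. The simulated noise was independent between genes, and the change was the same in all 4 lines. In the real libraries the differences were unlike between lines, so these shares need not hold for them. Fold rules of 1.5 and 2 describe single lines, where no test is possible. The genes and lists were chosen with earlier results of these data known. Full statistics are given for the sensors and, per role, for the gene of highest mean TPM and the 2 of smallest p, and also for Hspa5, which was added after its values were seen. In each line the 3 genes with the largest difference in each direction, and in each further list the 2 of smallest p, are named. Other pseudocounts, filters, scalings and left-out lines were tried. Promoters were placed on GRCm39 by exact match with Python 3.11.15. Protein sequences were not analysed here.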

Additional observations from a re-analysis of the deposited data

Results flagged for a closer look

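Among 60 groups of 4 libraries (30 genes in each genotype), 6 held a library far from the other 3. The rule flags about 1 in 20 groups of independent, normally distributed values. Here the 4 libraries are different lines and the genes share the same libraries, so that rate cannot be set against the 6 of 60. In the KO group the library of 6694c2 stood apart for Manf (349 TPM), Creld2 (264 TPM), Hyou1 (267 TPM) and Sel1l (97.7 TPM), and that of 6499c4 for Ssr3 (197 TPM, the lowest). In the WT group the library of 2838c3 stood apart for Ern1 (9.63 TPM, the lowest).

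KO minus WT had opposite signs in different lines, and with 1 library per genotype in a line this difference was not tested. The median of the 30 genes was 0.81 in 6694c2 and -0.22 in 2838c3. Without a fold rule, 20 of the 30 genes were higher in 6694c2 and 6419c5 and lower in 2838c3 (18.3% of all genes). A stricter rule asked for at least 1.5-fold higher in 1 line and 1.5-fold lower in another. It flagged 8 of the 30, and its share over all genes was not counted. In 6694c2 and 2838c3 the flagged genes were Hspa5 (1.94 and -0.70), Sdf2l1 (1.66 and -0.62), Manf (1.49 and -0.85), Creld2 (1.31 and -0.76), Dnajb11 (0.93 and -1.02), Dnajc3 (0.81 and -0.66) and Calr (0.81 and -0.84). The last flagged gene, Sec61b, was at 0.78 in 6419c5 and -0.64 in 2838c3.

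Identifiers without a name, of which 136 are among the 12900 genes tested, held 12.5% of TPM in the KO library of 6694c2 and 9.69% in that of 6419c5, above every WT library.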

How the results depend on the processing

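No gene passed the adjusted threshold for KO against WT under any of the 14 alternatives run, the fit with no replicate block among them (0 genes, smallest limma adjusted p = 0.9995, against 0.278 with the block). The medians of the 30 genes kept their sign in every line under the 6 other pseudocounts, filters and scalings. Of the 30 genes 2 passed the F test between lines, against 16.9% of all genes. The count was 1 with a TPM minimum of 5, with no filter and with no trend, where 16.3%, 6.47% and 15.9% of all genes passed. It was 4 with median-ratio scaling (17% of all genes), and 0 to 10 when 1 line was left out (5.83% to 29.1% of all genes). Over all genes that count, 2178, ranged from 745 to 3785 when 1 line was left out and was 1077 without 6694c2 and 6419c5. At an unadjusted p under 0.05 the count of 0 became 1 with median-ratio scaling, 2 with quantile normalization, 0 to 1 when 1 line was left out, and 2 without 6694c2 and 6419c5 (Dnajb11 and Dnajc3, lower, where 5.14% of all genes were lower). Estimates near 0 changed sign. With a pseudocount of 0.1 and with median-ratio scaling Calr was at 0.0012 and 0.0011, Pdia3 at 0.012 and 0.012, and Ssr1 at 0.0049 and 0.0051. Pdia3 was at 0.0054 with structural RNA removed. With no filter Eif2ak3 was at -0.032 and P4hb at -0.014, and P4hb was at -0.026 with quantile normalization. Without 6694c2 and 6419c5 the values were -0.37 for Hspa5, -0.10 for Hyou1, -0.15 for Pdia6, -0.29 for Herpud1, -0.20 for Ssr3, -0.20 for Sec61b and -0.028 for Eif2ak3. With 1 line left out, Ssr3 ranged from -0.0063 to 0.26, Calr ranged from -0.29 to 0.26, Pdia3 ranged from -0.19 to 0.18, Ssr1 ranged from -0.16 to 0.14. The cause of these changes was not tested. TPM give no depth, and 1 library per genotype in a line limits every difference within a line.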
